A study of Mus musculus with 8 samples.

Results

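The 137 rows described here measured transcripts that hold microRNA hairpins in lung neutrophils of mice given Streptococcus pneumoniae (SP) or phosphate-buffered saline (PBS). They were chosen by name and by level. Of 24625 rows on the array, 309 had a RefSeq noncoding identifier that belongs to a mouse microRNA gene. The 3 rows of the Mir146 and Mir155 genes were set apart, and 137 of the others had a mean signal of at least 5 on the log2 scale over all 8 arrays, while 169 had a lower mean. Just inside this level stood Mir298 (5.02) and Mir139 (5.0), and just outside it Mir144, which also rounds to 5.0, and Mirlet7a-2 (4.99).

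Each group held 4 arrays of wild type mice, labelled as 6 to 12 weeks of age. Mice received S. pneumoniae, or PBS in the control group, by intratracheal instillation to the left lung (2.3 µl for each g of weight), and neutrophils were collected 24 h later. Cells of the digested lungs were taken by beads that bind Ly6G, a surface protein of neutrophils, and total RNA of each sample was hybridised to 1 Affymetrix Mouse Gene 1.1 ST array. Per the study's methods, purity was assessed in the pneumonia samples. The paper describes each sample as coming from a mouse of its own, so that the replicates are animals.

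MicroRNAs are short RNAs that guide Argonaute proteins to messenger RNAs and lower their stability or translation. A microRNA gene, or an intron of a host gene, is first transcribed as a long primary transcript, from which Drosha and Dgcr8 cut the hairpin, and Dicer1 then cuts the mature form from the hairpin. Bases 2 to 8 of the mature strand, the seed, set most of its pairing with targets, so that microRNAs with 1 seed form a family. Probes of this array read RNA that holds the hairpin, and a row says nothing of the amount of the mature microRNA, which was not analysed here.

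Mature sequences of the rows on which the results turn are shown here to make the shared seeds visible, 5′ to 3′ with the seed in capitals. They were taken from RefSeq (build GRCm38.p6), which gave a mature sequence for 118 of the 137 rows.
miR-221-3p of Mir221: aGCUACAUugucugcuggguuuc
miR-222-3p of Mir222: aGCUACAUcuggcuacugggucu
miR-29a-3p of Mir29a: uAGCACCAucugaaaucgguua
miR-29b-3p of Mir29b-1: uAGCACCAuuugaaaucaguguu
miR-15a-5p of Mir15a: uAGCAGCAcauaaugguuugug
miR-16-5p of Mir16-1 and Mir16-2: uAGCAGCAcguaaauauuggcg
miR-340-5p of Mir340: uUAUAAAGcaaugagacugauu
miR-140-3p of Mir140: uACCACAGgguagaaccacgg
miR-191-5p of Mir191: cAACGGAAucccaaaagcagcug
miR-425-5p of Mir425: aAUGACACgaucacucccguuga
miR-22-3p of Mir22: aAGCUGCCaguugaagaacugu
miR-142a-3p of Mir142: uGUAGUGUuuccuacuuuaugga
miR-692 of Mir692-1: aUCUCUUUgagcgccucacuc
let-7d-5p of Mirlet7d: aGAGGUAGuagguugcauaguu
miR-568 of Mir568: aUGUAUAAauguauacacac
miR-344-3p of Mir344: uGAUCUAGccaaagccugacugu
In this set miR-221-3p and miR-222-3p shared the seed GCUACAU, both miR-29 strands AGCACCA, and miR-15a-5p and miR-16-5p AGCAGCA. Of the 118 rows, 27 belonged to a microRNA whose mature sequence RefSeq lists at more than 1 locus, among them Mir16-1, Mir29b-1, Mir103-2, Mir344 and Mir692-1 of those that changed by at least 2-fold. Where the hairpins of such copies are nearly alike, the locus that gave the signal is uncertain.

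Some features of the arrays bear on all the values that follow. The list mean of neutrophil markers (8 of 8 genes with a row) was high throughout, at 12.21 to 12.57 in PBS and 11.83 to 12.76 in SP. Of these genes 3 were called lower in SP and 0 higher (background 22.6% and 21.5% of all rows). Camp was dimmer than the list mean, at 7.07 to 8.36 in PBS and 7.60 to 10.94 in SP, with SP replicate 3 the highest. Markers of other lung cells were higher in the PBS arrays. The mean of 6 endothelial genes ran from 10.76 to 11.77 in PBS and from 9.37 to 10.31 in SP, that of 7 genes of ciliated epithelium from 8.62 to 8.89 and from 6.95 to 7.16, and that of 4 B cell genes from 8.52 to 9.52 and from 6.27 to 7.75. The PBS samples were also unlike one another, since PBS replicates 1 and 2 had the higher endothelial values (11.36 and 11.77, against 10.88 and 10.76 in replicates 3 and 4). The part of these markers in the results was not tested. In such bulk samples fewer cells of a type and less RNA per cell cannot be told apart. Dim rows as a whole lay slightly higher in SP: of 8267 rows with a mean below 5, 7338 had a positive difference, with a median of 0.16 log2 units.

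Precursor rows that passed the test were mostly higher in pneumonia. At an adjusted p of 0.05 (limma, Benjamini-Hochberg over all 24625 rows), 63 of the 137 rows were higher in SP and 3 were lower, while 71 were not called. The background was 21.5% of all rows called higher and 22.6% called lower, against 46% and 2.19% of the precursor rows. At least a 2-fold difference was reached by 17 rows called higher (12.4%, background 6.37%) and 2 called lower (1.46%, background 11.3%). All SP samples were above all PBS samples in 63 rows (background 27.2% of all rows) and below them in 3 (background 21.8%). The median difference, SP minus PBS, was 0.31 log2 units over the 137 rows and 0.10 over all rows. The level that chose the rows was a mean over both groups, so that a row could pass through one of them. A PBS mean below 5 was found in 21 rows, which passed through their SP values, and 11 of them were called higher. Among the 116 rows with a PBS mean of at least 5, 52 were called higher (44.8%) and 13 by at least 2-fold (11.2%).

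Bright rows gave a larger share of calls than dim ones. Of the 84 rows with a mean from 5 to under 6, 33 were called higher (39.3%, against 20.8% of the 3850 rows of any kind in that range), with a median difference of 0.23 log2 units against 0.10. Of the 53 rows with a mean of at least 6, 30 were called higher (56.6%, against 24.2% of 12508 rows), with a median of 0.48 against -0.16. The same rows were also seldom lower: 2 of 84 and 1 of 53 were called so, while among rows of any kind the shares were 23.1% and 36%. The 169 microRNA rows below the level of 5 had a median difference of 0.12, with 26 called higher (15.4%), 2 lower and none by 2-fold, beside a median of 0.16 and 17.9% called higher and 1.94% lower among rows of any kind below 5.

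**Figure D1:**
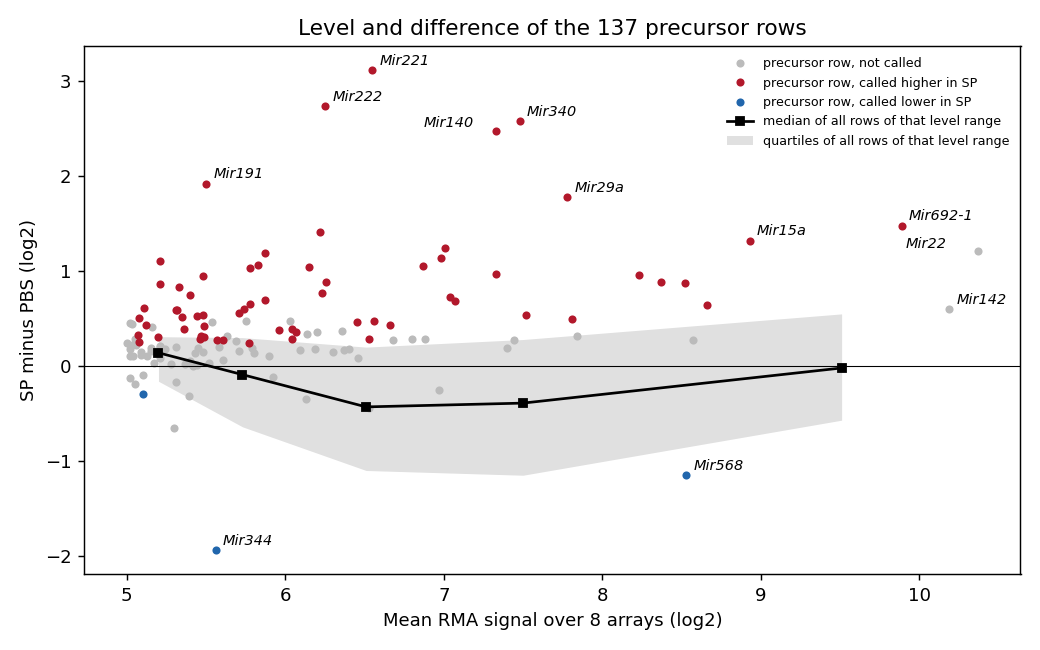
Mean log2 signal over 8 arrays (x axis) against the SP minus PBS difference in log2 units (y axis) for the 137 precursor rows, coloured by their call at an adjusted p of 0.05, with the median and quartiles of all rows of the same level range in black and grey. Most called rows lie above 0, with Mir221 (3.12) and Mir222 (2.74) at the top and Mir344 (-1.94) and Mir568 (-1.15) at the bottom.

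The largest differences belonged to Mir221 and Mir222, which are neighbours on the X chromosome (hairpins at chrX:19146294-19146388 and chrX:19146893-19146971, minus strand, GRCm38.p6) and are known to repress the cell cycle inhibitor Cdkn1b and the receptor Kit. The log2 signal of Mir221 was 4.97, 4.71, 5.15 and 5.14 in PBS replicates 1 to 4 and 7.73, 7.97, 8.74 and 8.02 in SP replicates 1 to 4. Mir222 read 4.70, 4.93, 4.93 and 4.93 in PBS and 7.93, 7.33, 7.99 and 7.23 in SP. Both rows were thus near the level of 5 in every PBS sample and above 7 in every SP sample, with no overlap. Against a floor of 4.90, Mir221 was 8.4-fold higher in SP (fitted difference 3.12 ± 0.21 log2 units, estimate ± SE, adjusted p = 2.04e-05 by limma). Mir222 was 6.47-fold higher against the same floor (2.74 ± 0.19, adjusted p = 1.97e-05). The groups hold 4 samples each. In PBS both rows lay at the dim end of the array (means of 4.99 and 4.88), and they passed the level of 5 through SP. Folds against the floor, here and for Mir191, Mir103-2 and Mir344, set each array of the dim group to no less than 4.90. That is the highest value that rows of Y-linked genes reached on any array. Such folds allow for the floor only and are no lower limit, since the spread between samples is left out. This floor was chosen after the values were seen.

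Mir340 and Mir140 followed. Mir340 (chr11:50069702-50069799, plus strand) lies within the span of Rnf130, a gene of a ubiquitin ligase, and Mir140 (chr8:107551244-107551313, plus strand), best known from cartilage, within that of Wwp2, another ubiquitin ligase. Mir340 read 5.89, 6.26, 6.33 and 6.29 in PBS and 8.86, 8.88, 9.14 and 8.21 in SP, a 5.97-fold rise (2.58 ± 0.20, adjusted p = 3.51e-05). Mir140 read 6.11, 5.89, 6.24 and 6.13 in PBS and 8.81, 8.55, 8.57 and 8.35 in SP, a 5.57-fold rise (2.48 ± 0.12, adjusted p = 4.66e-06). In both rows every SP sample was above 8 and every PBS sample was below 7. Mir140 varied little within a group (SD 0.15 in PBS and 0.19 in SP). These 2 rows, with Mir221, Mir222 and Mir692-1, were the 5 whose difference also exceeded 2-fold by limma's test against that size (treat).

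**Figure D2:**
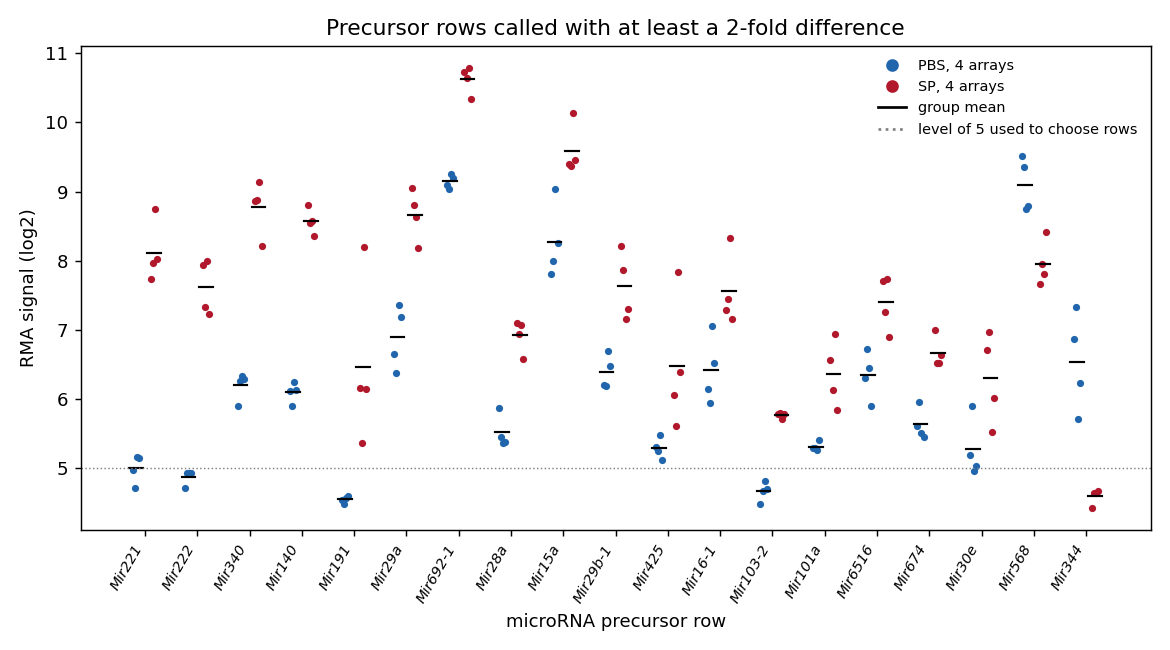
Log2 signal (y axis) of the 19 precursor rows called with at least a 2-fold difference (x axis, ordered by difference), with 4 PBS arrays in blue, 4 SP arrays in red and the group means as black lines. In 18 rows the groups do not overlap, and in Mir30e they do.

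The 29 family gave a pair of rises from 1 locus. Mir29a and Mir29b-1 are neighbours on chromosome 6 (chr6:31062660-31062747 and chr6:31063023-31063093, minus strand), and miR-29 strands are known to repress collagens and DNA methyltransferases. Mir29a read 6.64, 6.37, 7.35 and 7.19 in PBS and 9.05, 8.80, 8.63 and 8.18 in SP, and Mir29b-1 read 6.20, 6.18, 6.69 and 6.48 in PBS and 8.21, 7.87, 7.15 and 7.30 in SP. Groups did not overlap in either row, and SP replicates 1 and 2 were the highest of both. The rises were 3.42-fold for Mir29a (1.78 ± 0.26, adjusted p = 0.000877) and 2.37-fold for Mir29b-1 (1.24 ± 0.24, adjusted p = 0.00384).

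The 15 and 16 family rose at both loci that had rows with a mean of at least 5. Its members are known to lower Bcl2 and cyclins. Mir15a and Mir16-1 lie side by side within the span of Dleu2, a long noncoding host gene on the minus strand of chromosome 14 (mature strands of Mir15a at chr14:61632038-61632096, hairpin of Mir16-1 at chr14:61631880-61631972). Mir15a read 7.81, 7.99, 9.03 and 8.26 in PBS and 9.40, 9.37, 10.14 and 9.46 in SP (2.50-fold, 1.32 ± 0.28, adjusted p = 0.00623). Mir16-1 read 6.14, 5.94, 7.05 and 6.52 in PBS and 7.29, 7.45, 8.33 and 7.16 in SP (2.21-fold, 1.14 ± 0.31, adjusted p = 0.0186). In both rows replicate 3 was the highest of its group on each side, and no SP sample fell below a PBS sample. Mir16-2, on chromosome 3 (chr3:69009902-69009996), was 1.63-fold higher (0.70 ± 0.12, adjusted p = 0.00162), from 5.52 ± 0.19 in PBS to 6.22 ± 0.14 in SP (mean ± SD, n = 4). Without PBS replicates 1 and 2, the pair with more endothelial signal, the differences were 0.95 for Mir15a (adjusted p = 0.0609) and 0.77 for Mir16-1 (adjusted p = 0.162), so that neither passed the test. Without PBS replicate 1 alone Mir16-1 did not pass either (1.05, adjusted p = 0.0539).

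Mir191 and Mir425 sit in 1 host gene, Dalrd3 on chromosome 9 (chr9:108568319-108568392 and chr9:108568777-108568861, plus strand). Mir191 read 4.54, 4.48, 4.56 and 4.59 in PBS and 6.16, 5.36, 8.19 and 6.14 in SP. Against the floor of 4.90 Mir191 was 2.94-fold higher in SP (fitted difference 1.92 ± 0.52, adjusted p = 0.0180). Its PBS values all lay within the range of the Y-linked rows, and it passed the level of 5 through SP. Mir425, named after its values were seen, read 5.30, 5.24, 5.47 and 5.11 in PBS and 6.06, 5.60, 7.83 and 6.39 in SP, which was 2.28-fold (1.19 ± 0.42, adjusted p = 0.0481). SP replicate 3 was far above the other SP samples in both rows, and it carried much of both means. The call of Mir191 was lost without PBS replicates 1 and 2 (1.89, adjusted p = 0.109), and that of Mir425 was lost under 9 of the alternatives.

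Mir692-1 and Mir28a were the others among the 10 largest rises without overlap. Mir692-1 (chr17:6895229-6895337, minus strand) was one of the brightest rows, at 9.10, 9.03, 9.26 and 9.20 in PBS and 10.73, 10.65, 10.79 and 10.34 in SP, a 2.79-fold rise (1.48 ± 0.11, adjusted p = 3.58e-05). Its mature sequence is listed at 3 loci. Mir28a, within the span of Lpp on chromosome 16 (mature strands at chr16:24827868-24827929), read 5.87, 5.45, 5.36 and 5.37 in PBS and 7.10, 6.93, 7.07 and 6.57 in SP (2.65-fold, 1.41 ± 0.16, adjusted p = 0.000219). Of the other rows called at least 2-fold higher, 4 were named after their values were seen. Mir103-2 rose by 1.11 log2 units, Mir101a by 1.06, Mir6516 by 1.05 and Mir674 by 1.04. Mir103-2 was the tightest of these in SP (5.71 to 5.80, against 4.48 to 4.81 in PBS, adjusted p = 3.25e-05). But its PBS values too lay within the range of the Y-linked rows, and against the same floor its rise was 1.82-fold.

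Only 3 rows were lower in SP. Mir344 (chr7:61877770-61877864, minus strand) read 6.87, 7.33, 5.71 and 6.23 in PBS and 4.42, 4.64, 4.64 and 4.67 in SP. Against the floor of 4.90 Mir344 was 3.1-fold lower in SP (fitted difference -1.94 ± 0.31, adjusted p = 0.00144). All its SP values lay within the range of the Y-linked rows. Mir568 (chr16:43640655-43640737, plus strand) read 9.51, 9.35, 8.75 and 8.79 in PBS and 7.66, 7.95, 7.80 and 8.42 in SP, which was 2.21-fold lower (-1.15 ± 0.22, adjusted p = 0.00402). Mir717, named after its values were seen, differed by less (-0.29 ± 0.08, adjusted p = 0.0227), and its call was lost under 6 of the alternatives. In Mir344 and Mir568 PBS replicates 1 and 2 were higher than replicates 3 and 4, as was the endothelial list, and the part of that in the falls was not tested. Both rows were still called lower without these 2 samples (Mir344 -1.38, adjusted p = 0.00184, and Mir568 -0.81, adjusted p = 0.0328), Mir568 then by less than 2-fold. The span of Tigit, a receptor gene of lymphocytes, covers Mir568 on the other strand.

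**Figure D3:**
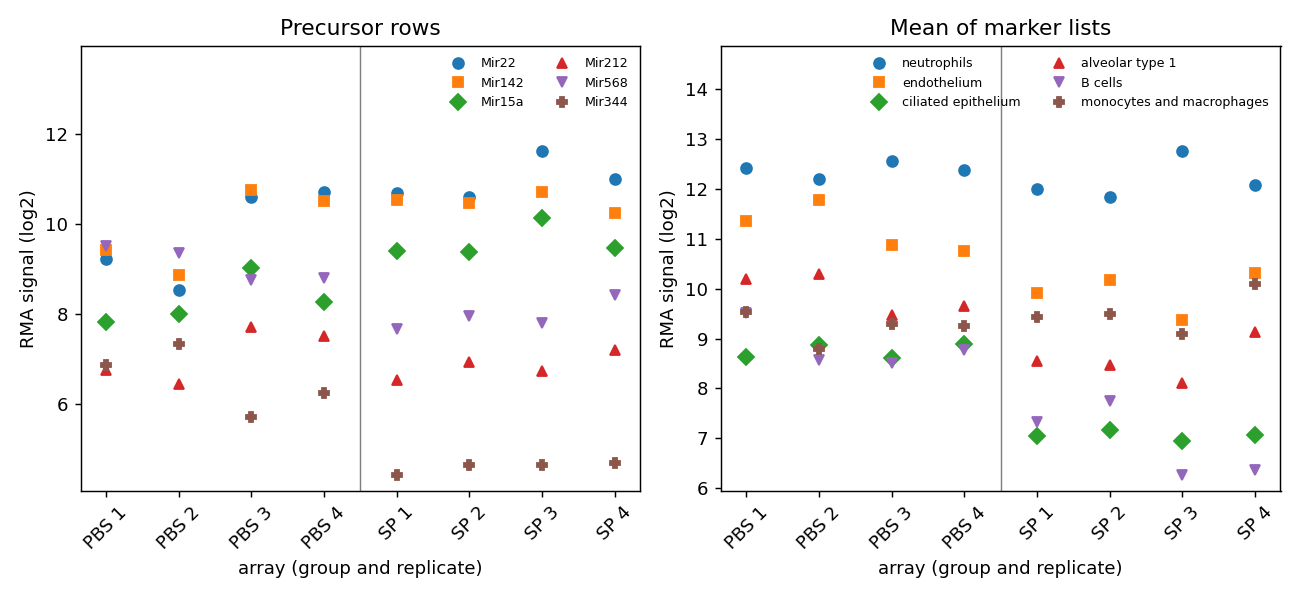
Log2 signal (y axis) in each of the 8 arrays (x axis, PBS left and SP right of the grey line) for 6 precursor rows (left) and the mean of 6 cell type marker lists (right). Mir22, Mir142 and Mir212 are lower and Mir344 and Mir568 higher in PBS replicates 1 and 2 than in replicates 3 and 4, and endothelial and alveolar type 1 markers are higher there.

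The brightest rows of the set did not show the largest differences, and probes of different rows need not respond alike, so that their order is not one of abundance. Mir22 (chr11:75463716-75463810), a microRNA with a noncoding primary transcript of its own, read 9.22, 8.54, 10.60 and 10.72 in PBS and 10.69, 10.61, 11.62 and 11.00 in SP. Mir142 (chr11:87756864-87756927), which is largely restricted to blood cells, read 9.41, 8.87, 10.76 and 10.51 in PBS and 10.54, 10.46, 10.72 and 10.25 in SP. In both rows PBS replicates 1 and 2 stood apart below all other samples, whereas PBS replicates 3 and 4 lay within or next to the SP range. Neither was called (Mir22 1.21 ± 0.49, adjusted p = 0.0759, and Mir142 0.60 ± 0.39, adjusted p = 0.224). Without PBS replicates 1 and 2 the difference of Mir142 was -0.14 (adjusted p = 0.511). Such a split was not confined to these rows, for PBS replicates 1 and 2 were both below replicates 3 and 4 in 67 of the 137 rows and both above them in 14, against 30.1% and 23.9% of all rows. The gap was over 1 log2 unit in Mir22, Mir142, Mir132 and Mir212 downwards and in Mir344 upwards.

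Other bright rows moved by less than 2-fold. Mir7-1, in the span of Hnrnpk, rose 1.56-fold, from 8.34 ± 0.11 to 8.98 ± 0.23 (mean ± SD, n = 4, adjusted p = 0.00356). Mir505 rose 1.84-fold, from 8.08 ± 0.40 to 8.96 ± 0.20 (adjusted p = 0.00766). In neither did the groups overlap. Mir27a, at 8.64, 7.42, 8.91 and 8.76 in PBS and 8.27, 8.76, 8.68 and 9.10 in SP, was not called (0.27 ± 0.33, adjusted p = 0.498), and its cluster neighbours Mir23a (0.32 ± 0.29, adjusted p = 0.369) and Mir24-2 (0.19 ± 0.23, adjusted p = 0.490) were not called either. PBS replicate 2 was the lowest sample in all 3 rows of that cluster, which is known from myeloid cells, and without it the difference of Mir27a was -0.07. A missed threshold does not show that the rows were alike between groups.

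The let-7 family, a set of repressors of growth genes whose own maturation is blocked by Lin28 proteins, had 10 rows with the seed GAGGUAG, Mir98 included. Differences ran from -0.35 to 0.69 with a median of 0.37, 4 rows were called higher and none lower (background 21.5% and 22.6% of all rows). Mirlet7d rose most (1.61-fold, 0.69 ± 0.13, adjusted p = 0.00341), with 6.67, 6.57, 6.94 and 6.73 in PBS and 7.25, 7.33, 7.74 and 7.33 in SP. Mirlet7i (0.59, adjusted p = 0.00911), Mirlet7a-1 (0.43, adjusted p = 0.00279) and Mirlet7b (0.39, adjusted p = 0.00563) were the others called. Mirlet7e was the only one with a negative difference (-0.35, adjusted p = 0.102). Within the cluster of Mirlet7a-1, Mirlet7d and Mirlet7f-1 on chromosome 13 the third row missed the threshold narrowly (Mirlet7f-1 0.36, adjusted p = 0.0533). The remaining rows, Mirlet7g (0.44), Mir98 (0.27), Mirlet7f-2 (0.17) and Mirlet7c-2 (0.06), were not called.

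Rows of the 30 family and of the cluster around Mir17 gave smaller or less stable differences. Mir30d was 1.46-fold higher (0.54 ± 0.15, adjusted p = 0.0219), Mir30e 2.05-fold higher with overlapping groups (1.03 ± 0.34, adjusted p = 0.0371), and Mir30b not called (0.41 ± 0.19, adjusted p = 0.108). Mir30e was lost under 7 of the alternatives. Of the Mir17 cluster, known for its role in proliferation, Mir18 (0.65, adjusted p = 0.0274) and Mir19b-1 (0.75, adjusted p = 0.0401) were called higher and Mir19a was not (0.48, adjusted p = 0.0757), but groups overlapped in each, and the calls of Mir18 and Mir19b-1 were lost under 9 and 10 alternatives. The host transcript Mir17hg was higher by 0.64 ± 0.16 (adjusted p = 0.0119). Mir335 was 1.37-fold higher (0.46 ± 0.13, adjusted p = 0.0195), and its call was lost without PBS replicate 1 (0.42, adjusted p = 0.0577). Among rows of microRNAs known in neutrophils or lung, Mir26b (0.14, adjusted p = 0.617), Mir125b-2 (0.01, adjusted p = 0.910), Mir449c (0.12, adjusted p = 0.201) and Mir139 (0.24, adjusted p = 0.102) were not called. Mir132 and Mir212, named after their values were seen, share a locus and a seed and were not called (-0.13 and -0.25). The rows of Mir223 and Mir21a were not analysed here.

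Clusters and seed families grouped 42 and 37 of the rows. A cluster was a run of rows on 1 strand whose starts were within 10000 bases. Of 16 such clusters those of Mir221, Mir29a, Mir15a and Mir191 had every row called higher (background 21.5% of all rows). In the clusters of Mir15a and Mir191 the call of each row was lost under at least 1 alternative. The largest cluster held 8 rows of an imprinted region of chromosome 12, with differences from -0.12 to 0.31 and 1 call. Rows of 1 locus are not independent of each other, as 1 transcript can carry all hairpins of a cluster.

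Some rows belong to microRNAs known from other tissues, and these show what a mean just above 5 can hold. Mir1a-1, Mir1a-2 and Mir206 of muscle, Mir124a-1 of neurons, Mir302a and Mir302d of embryonic stem cells and Mir201, Mir463, Mir465, Mir470 and Mir471 of testis had means from 5.02 to 5.96. They were chosen after their values were seen. Of these 11 rows 4 were called higher (Mir1a-2, Mir302d, Mir465 and Mir470), with a median difference of 0.20 over the 11, beside 20.8% called higher and a median of 0.10 among rows of any kind with a mean from 5 to under 6. Only 53 of the 137 rows had a mean above the highest of them. For comparison, 3 rows of genes on the Y chromosome ranged from 4.33 to 4.90 over all arrays. Of the 46 rows called higher by less than 2-fold (0.24 to 0.97 log2 units), 21 differed by less than 0.5, and the called ones of the 11 rows ranged from 0.24 to 0.51.

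Hairpins and their surroundings were compared as a description. The median hairpin length was 87 bases for the 112 rows with a RefSeq hairpin (63 to 110) and 84 for 156 of the other microRNA rows, and the median GC content was 48% and 47.6%. Of 119 rows with a position, 48 lay within the span of a gene on the same strand and 60 within none, while 11 lay in the span of a gene whose strand is not in the tables used. The first kind had 25 of 48 rows called higher and a median difference of 0.40, and the second 23 of 60 and 0.27. Over all rows 21.5% were called higher, with a median difference of 0.10. These kinds of rows were not matched for level, and the contrast between them was not tested. The tables give the span of a gene and not its exons, so that introns and exons were not told apart.

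For 33 rows the host gene, 30 genes in all, had a row of its own. Of the host genes, 4 were called higher (13.3%, background 21.5% of all rows), 10 lower (33.3%, background 22.6%) and 16 were not called. Of their 33 precursor rows 17 were called higher (51.5%), 1 lower and 15 were not called. The median difference was 0.44 log2 units over the precursor rows and -0.04 over the host side of the pairs. Both were higher in 4 pairs, the precursor row was higher with its host not called in 10 and with its host lower in 3, and in 8 the host was lower with the precursor row not called. The host row was brighter in 29 of the 33 pairs, with a median mean signal of 9.16 against 5.87 for the precursor rows. Precursor and host rows were thus not matched for level, and the part of level in their calls was not tested. Across the 33 pairs Pearson's r of the differences was 0.429 and Spearman's rho 0.462, as a description only, since all pairs share the same 8 arrays and some share a host.

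Wwp2 rose with its Mir140 (9.70, 9.28, 10.05 and 9.87 in PBS and 11.27, 11.33, 11.23 and 10.91 in SP, 2.75-fold, 1.46 ± 0.17, adjusted p = 0.000286). Lpp, which makes a protein of cell adhesions, was higher by 0.51 (adjusted p = 0.00146) beside 1.41 for Mir28a. Rnf130 was not called (0.44 ± 0.20, adjusted p = 0.105) beside 2.58 for Mir340, nor was Dleu2 (0.22, adjusted p = 0.408) beside Mir15a and Mir16-1. Dalrd3 moved the other way from Mir191 and Mir425, at 9.81, 10.30, 9.64 and 9.83 in PBS and 8.41, 8.74, 7.94 and 8.60 in SP (2.78-fold lower, -1.47 ± 0.20, adjusted p = 0.00059). SP replicate 3, the highest of the group for Mir191 and Mir425, was the lowest for Dalrd3. Mest, an imprinted gene, was lower (-1.48 ± 0.25, adjusted p = 0.002) while Mir335 within it was higher. Gpc3, a cell surface proteoglycan, was 7.22-fold lower (adjusted p = 0.00028), and Mir717 within it was among the 3 rows that fell. Huwe1, a ubiquitin ligase around Mirlet7f-2 and Mir98, was lower as well (-1.15, adjusted p = 0.000917). Of the other hosts of rows described here, Hnrnpk (0.07), Nfyc (0.04), Pank2 (0.12), Spaca6 (0.11), Ctdsp1 (-0.39), Wdr82 (-0.06), Pde2a (-0.01) and Cdc20b (0.01) were not called. The difference between a row and its host was not tested.

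**Figure D4:**
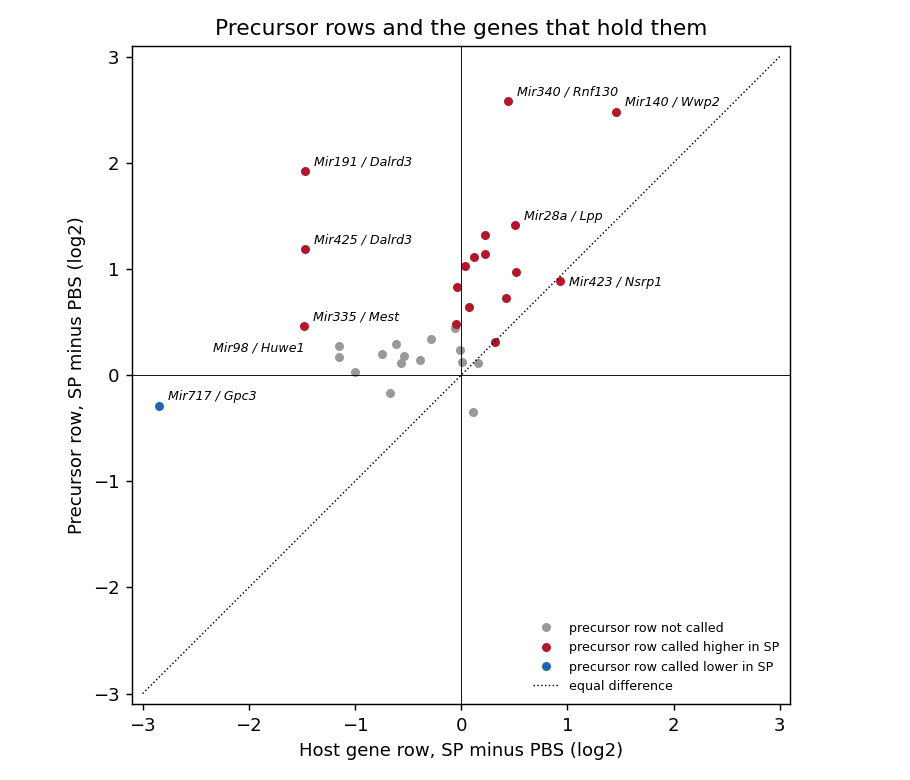
SP minus PBS differences in log2 units of the host gene (x axis) and of the precursor row it holds (y axis) for 33 pairs, coloured by the call of the precursor row, with a dotted line where both are equal. Most points lie above the line, and Mir191, Mir425 and Mir335 stand above 0 while their hosts stand below it.

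Genes that make and use microRNAs were called in both directions, at shares near those of all rows on the higher side. Of 35 genes listed for this purpose 34 had a row, and 8 were called higher (23.5%, background 21.5% of all rows) and 11 lower (32.4%, background 22.6%), with a median difference of -0.26 log2 units. By at least 2-fold, 2 were higher (5.88%, background 6.37%) and 5 lower (14.7%, background 11.3%), so that the single genes are given as values and nothing is read from the list. Zc3h12a, a ribonuclease that cuts inflammatory messenger RNAs and microRNA hairpins, read 8.41, 7.91, 9.40 and 9.48 in PBS and 11.56, 11.45, 11.71 and 11.33 in SP (6.56-fold higher, 2.71 ± 0.34, adjusted p = 0.000389). Adar, which edits adenosines in double-stranded RNA, was 3.73-fold higher (1.90 ± 0.18, adjusted p = 0.00011), and Tent2, which adds adenosines to RNA ends, 1.94-fold higher (0.95 ± 0.09, adjusted p = 0.000119). For all 3 genes the groups were apart.

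Dicer1, which cuts the mature form from the hairpin, read 9.26, 9.70, 8.98 and 9.18 in PBS and 8.09, 8.23, 7.86 and 8.36 in SP (2.21-fold lower, -1.14 ± 0.17, adjusted p = 0.000959). Its partner Prkra was 2.25-fold lower (-1.17 ± 0.11, adjusted p = 0.000106). Drosha, at 8.25, 8.56, 7.98 and 8.25 in PBS and 7.66, 7.38, 6.04 and 7.77 in SP, was 2.06-fold lower (-1.04 ± 0.36, adjusted p = 0.0445), with SP replicate 3 far below the rest, and its call was lost under 9 of the alternatives. Dgcr8 (-0.50 ± 0.24, adjusted p = 0.119) and Xpo5, the exporter of hairpins (-0.29 ± 0.17, adjusted p = 0.176), were not called. Among the Argonautes, Ago1 was 2.46-fold lower (-1.30 ± 0.25, adjusted p = 0.00385), and Ago2, the one with slicing activity, was 1.62-fold higher (0.69 ± 0.17, adjusted p = 0.0113). Ago2 was not called without PBS replicates 1 and 2 (adjusted p = 0.0704). Most cell types use these genes, so the markers of epithelium and endothelium that were lower in SP stand beside these falls too, and their part was not tested.

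**Figure D5:**
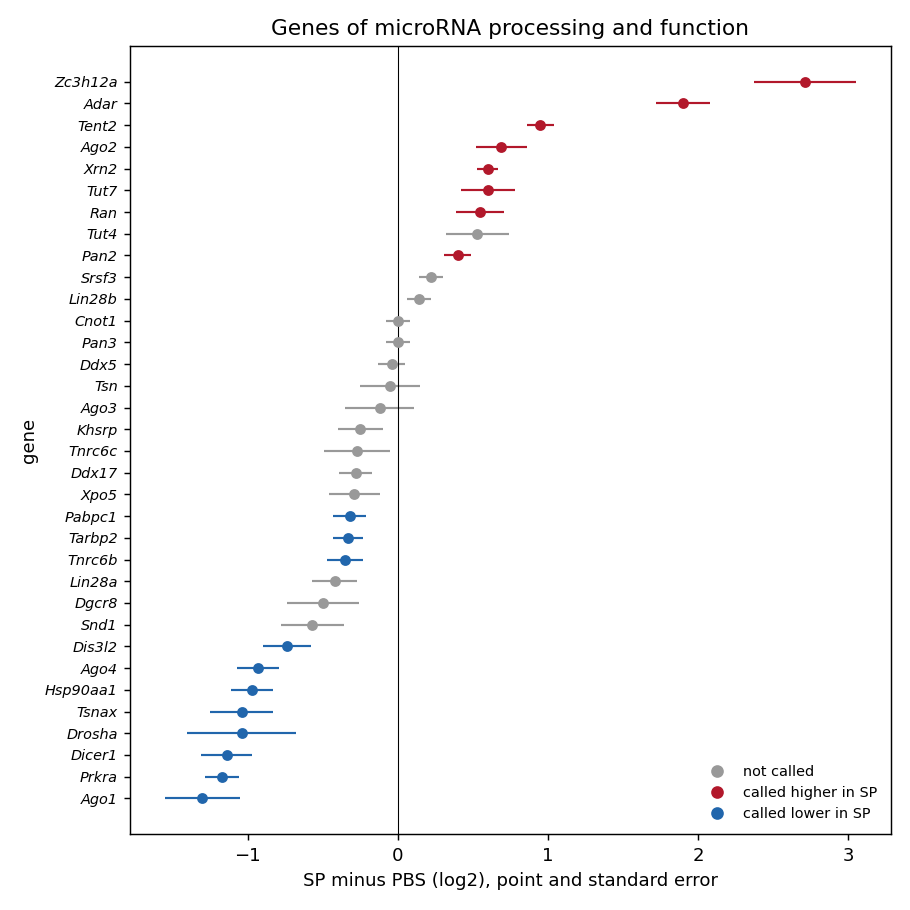
SP minus PBS differences in log2 units (x axis, point and standard error, 4 arrays per group) for 34 genes of microRNA processing and function (y axis), coloured by call. Zc3h12a (2.71) and Adar (1.90) are highest, and Ago1 (-1.30), Prkra (-1.17) and Dicer1 (-1.14) are lowest.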

How the data were processed

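The authors deposited log2 values of 8 Affymetrix Mouse Gene 1.1 ST arrays (24625 rows), made per the study's methods by RMA with background correction, quantile normalization, median polish and a custom mapping of probe sets to genes; the submitters' notes name Affymetrix Expression Console and Partek. Such scaling sets levels relative to each array's whole distribution. The medians of the deposited arrays still differed, from 6.06 to 6.20 in PBS and from 5.78 to 5.91 in SP. RefSeq identifiers gave a symbol to 19915 rows (80.9%) through RefSeq tables of GRCm38.p6, which also gave sequences and positions.

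SP was compared with PBS by limma 3.58.1 in R 4.3.3 (lmFit and eBayes, two-sided) over all rows, with Benjamini-Hochberg adjustment, an adjusted p of at most 0.05 and, for 2-fold calls, 1 log2 unit. The fit was tested on simulated data. Tables and figures were made in Python 3.11.15. The rows, gene lists and rules were chosen with earlier results of these data known. Named rows were the 10 largest rises and falls called 2-fold without overlap, the 8 highest means, the 2 rows on each side of the level of 5, a list of microRNAs known in neutrophils or lung, their host genes, and the leading processing genes. Hosts were genes whose span holds the precursor on the same strand. Alternatives changed the test, variance prior, scaling, filter, level and samples. The number of arrays limits the precision. Marker lists of fibroblasts (8.39 to 9.08 in PBS, 7.56 to 8.97 in SP), T cells (5.45 to 6.22 and 5.72 to 6.79), erythroid cells (4.53 to 6.09 and 4.43 to 4.63), club cells (13.18 to 13.50 and 11.40 to 11.98), alveolar type 1 (9.47 to 10.30 and 8.10 to 9.13) and type 2 cells (12.07 to 12.59 and 10.20 to 11.55), alveolar macrophages (8.34 to 8.85 and 7.77 to 8.21), monocytes and macrophages (8.79 to 9.53 and 9.09 to 10.10) and proliferation (6.08 to 6.71 and 6.13 to 6.54) were also summed as mean log2 values.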

Additional observations from a re-analysis of the deposited data

Results flagged for a closer look

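In 7 of 80 groups of 4 arrays tested, the highest or lowest array stood apart by Dixon's criterion at its 95% critical value, and chance flags about 1 in 20 groups. PBS replicate 1 was the low one for Mir222 (4.70, against 4.93 in the other 3) and for Mir340 (5.89, against 6.26 to 6.33). SP replicate 3 was the high one for Mir15a (10.14, against 9.37 to 9.46) and Mirlet7d (7.74, against 7.25 to 7.33). SP replicate 2 was high for Mirlet7f-1 (6.60, against 6.28 to 6.33), SP replicate 1 low for Mir344 (4.42, against 4.64 to 4.67), and PBS replicate 2 high for Mir139 (4.92, against 4.87 in the other 3). The calls of Mir222, Mir340, Mir344 and Mirlet7d held without each array in turn, and Mir15a was lost without PBS replicates 1 and 2 together.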

How the results depend on the processing

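Of 59 precursor rows described, 37 were called, and 23 of these were called under every alternative but treat, while 14 were lost under at least 1 and none changed direction. Of the 22 not called, 17 gained a call under at least 1 alternative, among them Mir298 under 7, Mirlet7f-1 under 4 and Mir22 under 3 (the replicate block, centred arrays and leaving out PBS replicate 4). With arrays centred on their median, 29 rows were called at least 2-fold higher, 1 at least 2-fold lower and 117 at an adjusted p of 0.05 (115 higher, 2 lower), as this scaling moved the median of all rows to 0.38. Of all rows 74.1% were then called in either direction, against 44.1% in the main fit. Centring moves all rows alike, so the gap between the medians of precursor rows and all rows stays at 0.20 by construction. After another quantile normalization 1 row was 2-fold lower, and the median difference was 0.53 over the precursor rows and 0.02 over all rows, a gap of 0.51. With rows below the median of all rows left out, 49 of the precursor rows remained, 27 were called and 1 was 2-fold lower, with medians of 0.50 and -0.15 (a gap of 0.65). The share called among all rows kept was 60.3%. Treat against 1 log2 unit left 5 rows higher, 0 lower, 5 in all (background 6.38% of all rows called), and 2 processing genes. Choosing rows from a mean of 6 gave 31 calls and 1 row 2-fold lower. Without PBS replicates 1 and 2, an alternative chosen after seeing the data, 30 of the 137 rows were called (26 higher, 4 lower). The background was then 27.2% of all rows called in either direction. In that fit 1 row was 2-fold lower, and 12 processing genes were called. Leaving out 1 sample at a time gave 43 (without PBS replicate 1) to 65 calls, 12 to 20 rows 2-fold higher, 2 rows 2-fold lower each time, and 14 to 18 processing genes. The share of all rows called in these fits ran from 33.3% (without PBS replicate 1) to 44.3% (without SP replicate 4).

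Same-numbered arrays had correlations of 0.0156, 0.0304, 0.35 and -0.274 between their deviations from group means. Arrays of unlike numbers ranged from -0.363 to 0.283. With 4 arrays in each group these values cannot settle whether the replicate numbers pair the samples. With the number as a replicate block, 61 rows were called (59 higher and 2 lower, background 40% of all rows called), with 18 at least 2-fold higher and 2 lower.

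Differences that turned sign all belonged to rows and genes that were not called. Without PBS replicates 1 and 2 this held for Mir142 (-0.14), Mir27a (-0.13), Mir23a (-0.0027), Mir24-2 (-0.05), Mir26b (-0.29), Mir125b-2 (-0.07) and Nfyc (-0.09). With array weights it held for Mir27a (-0.09), Mir24-2 (-0.06), Mir26b (-0.09), Mir125b-2 (-0.05), Spaca6 (-0.11), Cdc20b (-0.02) and Wdr82 (0.01). With centred arrays it held for Mir212 (0.03), Mir132 (0.15), Wdr82 (0.22) and Pde2a (0.27), and with another quantile normalization for Mir212 (0.17), Mirlet7e (0.00026), Hnrnpk (-0.18), Pank2 (-0.02) and Cdc20b (-0.14). Leaving out 1 sample at a time gave ranges across 0 for Mir27a (-0.07 to 0.43), Mir24-2 (-0.0038 to 0.33), Mir26b (-0.05 to 0.31), Mirlet7c-2 (-0.0016 to 0.12), Mir125b-2 (-0.05 to 0.06), Mir132 (-0.34 to 0.05), Spaca6 (-0.13 to 0.27), Nfyc (-0.06 to 0.18), Cdc20b (-0.03 to 0.03), Wdr82 (-0.13 to 0.06) and Pde2a (-0.25 to 0.18). The cause was not tested. Signal near background limits what the rows with means close to 5 can show.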

Other observations

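Other called rows, named after their values were seen, add to the picture of moderate rises. Mir186, in the span of Zranb2, was 1.96-fold higher (0.97 ± 0.11, adjusted p = 0.00024 by limma), and Zranb2 itself was higher by 0.52 (adjusted p = 0.00704). Mir423, in the span of Nsrp1, was 1.85-fold higher (0.89 ± 0.29, adjusted p = 0.0351), beside 0.93 for Nsrp1 (adjusted p = 0.0132), but the call of Mir423 was lost under 7 alternatives. Mir149 (0.86, adjusted p = 0.00554) and Mir10a (0.61, adjusted p = 0.00175) were dim in PBS, with means of 4.78 and 4.80.

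The 3 rows of Mir680, whose mature sequence is the same at each locus, differed in their values. Mir680-2 was higher by 0.96 ± 0.16 (adjusted p = 0.00159) and Mir680-1 by 0.89 ± 0.19 (adjusted p = 0.00553), and Mir680-3 was not called (0.37 ± 0.19, adjusted p = 0.13). Signal of near-identical copies cannot be assigned to a locus with certainty on such probes.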
